A study of Homo sapiens with 3 samples.

Results

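The genes described here encode the subunits of the proteasome and the proteins that assemble, activate or inhibit it. They were the protein-coding genes with a symbol beginning PSMA, PSMB, PSMC, PSMD, PSME, PSMF or PSMG to which the RefSeq accession of an array probe mapped, pseudogenes left out. The rule found 50 genes with 66 probes among the 19740 gene symbols named on the array. Of these, 48 genes with 63 probes encode subunits, activators, an inhibitor or assembly chaperones. PSMC3IP and PSME3IP1 met the rule by name only, since they are named as interaction partners of PSMC3 and PSME3 and are no part of the particle, and were kept apart.

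The proteasome is the protease that degrades proteins marked with ubiquitin. Its barrel-shaped core particle is built of alpha rings, which gate the entrance, and beta rings, whose PSMB5, PSMB6 and PSMB7 subunits cut the chain. A cap of PSMC ATPases and PSMD proteins binds, unfolds and feeds in the substrate. Interferon induces the replacement subunits PSMB8, PSMB9 and PSMB10, which form the immunoproteasome and favour peptides for antigen presentation. Hepatoma cells, like other growing cells, make the standard particle constantly.

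The data were 3 one-colour Agilent expression arrays of Huh7, a human hepatoma cell line, with 1 array per group. One group was untreated, one received CA, chlorogenic acid, a plant polyphenol, at 50 µM, and one received it at 100 µM, both for 24 h. The labels give no harvest time for the untreated cells. In the study's methods CA was dissolved in DMSO, and the untreated group is the vehicle reference. With 1 array per group there was no replicate, no test was made and no p-value is given, so every difference below compares 2 arrays. Of the 11 hepatocyte markers, 9, 10 and 10 were well above background on the untreated, CA 50 µM and CA 100 µM arrays, with ALB and AFP far above it on each. TF had no usable spot on the untreated and CA 50 µM arrays, so it was missing there rather than dim. On the CA 100 µM array its log2 level was 3.39. HNF4A, a hepatocyte transcription factor, was well above background on the CA 50 µM array only. It was dim on every array, with log2 levels of -6.82, -5.79 and -6.33. The lowest levels of any probe well above background were -6.44, -6.59 and -6.39, so its call was made near the limit of detection. Of 7 leukocyte markers with a probe, 5 were also well above background on each array, among them PTPRC at log2 levels of -1.96, -2.07 and -2.03, and CD79A at 1.21, 1.58 and 1.24. Their part in the results below was not tested.

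A level is the log2 processed signal of a probe minus the 75th percentile of its array, so 0 marks that percentile. A log2 ratio is the difference of 2 such levels, in the order named. Levels of different probes are not comparable with each other, because probes differ in how well they bind. A gene was measured in a comparison when a probe was well above background on both arrays, and its brightest such probe stood for it. The scanner software's own error gave an error of 0.20 for the log2 ratio of almost every member. Probes printed 10 times gave a smaller spread, with a median SD between spots of 0.064 over 807 probes at CA 50 µM. Both errors leave out the variation between cultures, RNA extractions and arrays.

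Of the 48 genes, 45 were measured in all 3 comparisons, and no member spot was saturated. PSMA8, the testis form of an alpha subunit, had levels of -8.64, -8.78 and -8.71 on the untreated, CA 50 µM and CA 100 µM arrays and was not well above background on any of them. PSMB8, an inducible catalytic subunit, had levels of -8.43, -7.01 and -7.29 and was likewise not well above background. For PSMB11, the thymus form, 1 probe was well above background at CA 100 µM only, with levels of -7.28, -6.92 and -6.18. This gave bounds of at least 1.197-fold more signal at CA 100 µM than in the untreated cells, and at least 1.33-fold more than at CA 50 µM. The scanner error of this signal was 21.8% at CA 100 µM, and the errors of the 2 log2 ratios were 0.68 and 0.56. Both bounds rest on a reading near the limit of detection and are uncertain. A second PSMB11 probe was not well above background on any array. The 3 genes without a measured ratio are therefore forms that belong to the testis, to the thymus or to cells under interferon.

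No proteasome gene differed by 2-fold. The count was 0 of 45 at CA 50 µM against untreated, where 0.973% of all 14700 measured genes differed that much. It was 0 of 45 at CA 100 µM, against 0.656% of 14640 genes, and 0 of 45 between the doses, against 0.675% of 14666 genes. At such shares less than 1 gene in 45 would be past 2-fold, so the count did not set the proteasome apart from the array. The median log2 ratio of the 45 genes was -0.044 at CA 50 µM, beside -0.038 for all genes. For CA 100 µM it was -0.021 beside -0.031, and between the doses, CA 100 µM against CA 50 µM, it was 0.047 beside 0.0022.

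A smaller size of 1.2-fold left more genes to describe. At CA 50 µM, 5 of 45 were at least 1.2-fold higher, PSMC3, PSMD3, PSMD13, PSME3 and PSMG3, where 16.4% of all genes were. In the other direction 7 of 45 were at least 1.2-fold lower, PSMA2, PSMB4, PSMB7, PSMB10, PSMD2, PSMG1 and PSMG4, where 16.1% of all genes were. PSMC3, PSMD3 and PSMG3 were at least 1.2-fold higher at CA 100 µM, 3 of 45 against 8.22% of all genes, and 0 of 45 were as much lower, against 10.4%. Between the doses, PSMB10 and PSMG1 were at least 1.2-fold higher at CA 100 µM, with 6.44% of all genes, and PSMC4 and PSME3 lower, with 13% of all genes. The shares of members were below or near those of all genes in each direction.

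**Figure D1:**
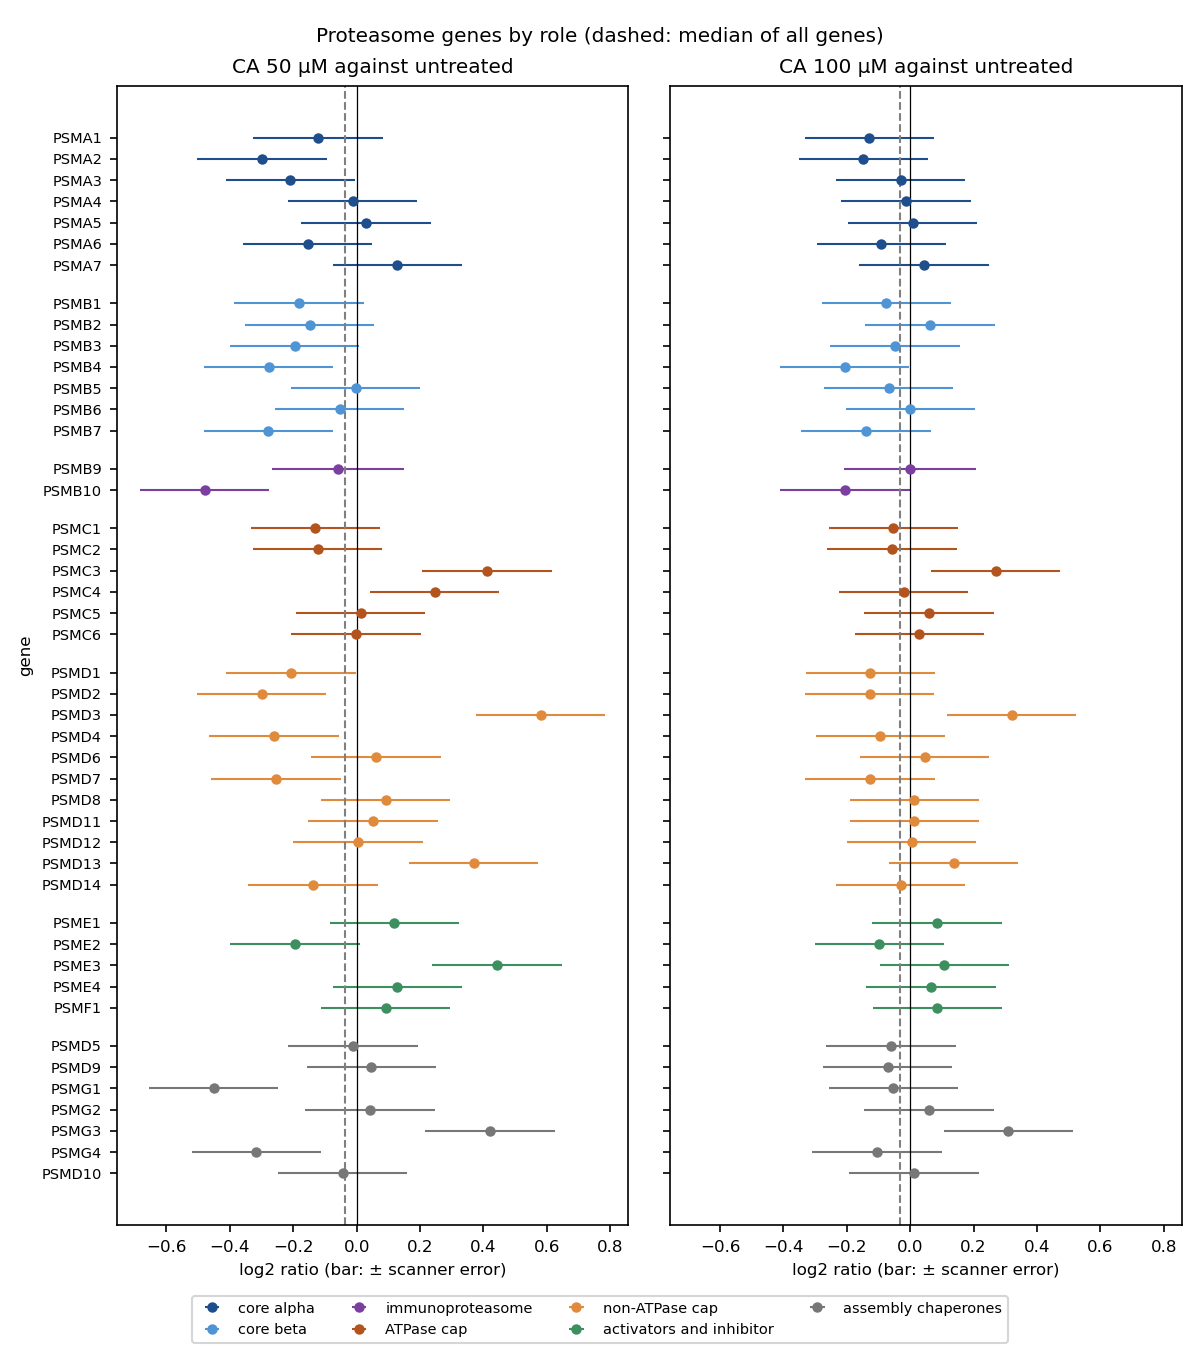
The log2 ratio of each measured proteasome gene on the horizontal axis, with genes grouped by role on the vertical axis, at CA 50 µM (left) and CA 100 µM (right) against untreated. Points are single ratios of 2 arrays, bars are ± the scanner error of about 0.20, and the dashed line is the median of all genes. PSMD3 lies farthest to the right in both panels, at 0.58 and 0.32, and most bars cross 0.

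Counted by the scanner error, a rule added after the data were seen, 4 genes were higher by more than 2 errors at CA 50 µM, PSMC3, PSMD3, PSME3 and PSMG3, where 8.27% of all genes were. PSMB10 and PSMG1 were lower by more than 2 errors, with 4.84% of all genes. Both counts of members were near those shares. The counts at CA 100 µM were 0 higher and 0 lower, with 2.9% and 2.54% of all genes, and between the doses 0 and 0, with 2% and 3.91%.

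In the core particle, all 7 beta subunits had negative ratios at CA 50 µM, with a median of -0.18, and 5 of 7 alpha subunits did, with a median of -0.12. Of all genes, 8276 of 14700 were below 0. All 14 measured core subunits were among the brightest 2940 genes, whose median was -0.11. Of these subunits, 10 were among the brightest 735 genes. The 75th percentile of those 735 genes was -0.062, so most of them were below 0 too. With quantile normalization, cyclic loess and the deposited normalized values, 4 of 7 beta subunits were negative. PSMB1, PSMB2, PSMB5 and PSMB6 changed sign under at least 1 of the 6 scalings compared, while PSMB3, PSMB4 and PSMB7 kept it. The catalytic subunits did not share one value. PSMB5, which cuts after hydrophobic residues, had levels of 3.43, 3.43 and 3.36 on the untreated, CA 50 µM and CA 100 µM arrays. PSMB6, which cuts after acidic residues, had levels of 3.51, 3.45 and 3.51. PSMB7, which cuts after basic residues, had levels of 3.98, 3.70 and 3.84. The 3 arrays thus lay within 0.07 of each other for PSMB5 and PSMB6, whereas PSMB7 was lowest at CA 50 µM, with log2 ratios of -0.28 and -0.14 at the 2 doses.

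PSMB4, a non-catalytic beta subunit, had levels of 5.64, 5.37 and 5.44, with ratios of -0.28 and -0.21. PSMB2, also non-catalytic, had levels of 4.65, 4.50 and 4.72, so that its ratio was -0.15 at CA 50 µM and 0.062 at CA 100 µM. Its other probe gave 0.12 and 0.048, so the probes differed in sign at CA 50 µM. Among the alpha subunits, which close the gate of the barrel, PSMA2 had levels of 4.17, 3.87 and 4.02 and the lowest ratios, -0.30 and -0.15. PSMA7 had levels of 2.67, 2.80 and 2.72 and the highest, 0.13 and 0.043. Each of these ratios was within 2 scanner errors of 0. The PSMA1 probe lay in a disturbed area of the CA 100 µM array, and its other probe gave 0.11 there in place of -0.13.

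The immunoproteasome subunits that could be measured were PSMB9 and PSMB10, the replacements of PSMB6 and PSMB7. PSMB9 had levels of -3.06, -3.12 and -3.06, with ratios of -0.060 and -0.00023, and did not differ between the arrays beyond its scanner error. Normexp on all spots, described below, gave it a ratio of 1.02 at CA 100 µM, and no other scaling compared gave more than 0. PSMB10 had levels of 1.27, 0.79 and 1.07. It was lowest at CA 50 µM, 1.39-fold below the untreated array, with a log2 ratio of -0.48, and at CA 100 µM the ratio was -0.21. Over the 6 scalings compared, the PSMB10 ratio stayed between -0.53 and -0.44 at CA 50 µM and between -0.40 and -0.18 at CA 100 µM.

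**Figure D2:**
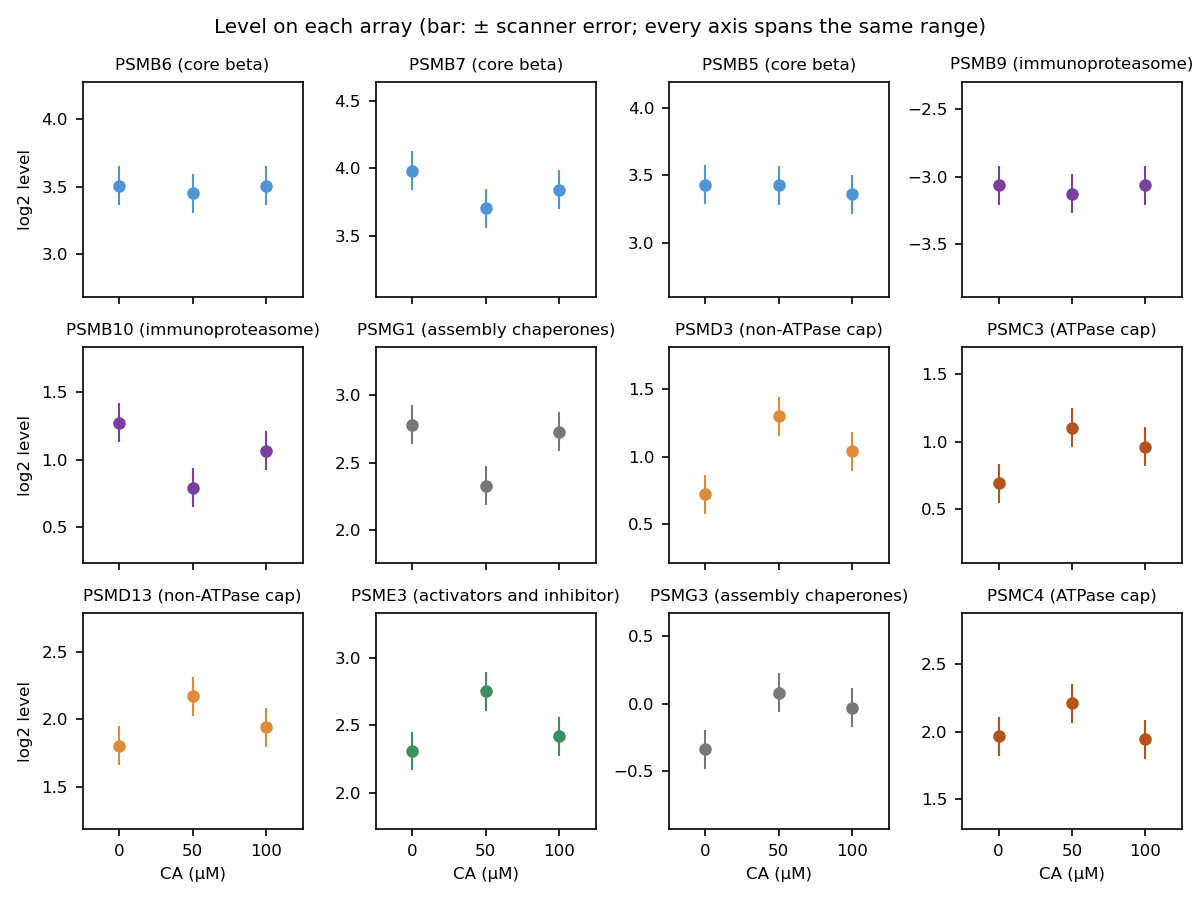
The log2 level (vertical axis, relative to the 75th percentile of the array) against the dose of CA in µM (horizontal axis) for 12 proteasome genes, 1 point per array, with bars of ± the scanner error of each level. Each panel has its own vertical axis of the same span, and the points of PSMD3, PSMC3, PSMD13, PSME3 and PSMG3 are highest at 50 µM, while those of PSMB10 and PSMG1 are lowest there.

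In the cap the ratios ran both ways. The ATPases PSMC1 to PSMC6 form the ring that unfolds the substrate, and their median was 0.0051 at CA 50 µM and 0.0039 at CA 100 µM. PSMC3 had levels of 0.69, 1.104 and 0.96 and the highest ratios of this ring, 0.41 and 0.27. PSMC4 had levels of 1.97, 2.21 and 1.94, so it was higher by 0.25 at CA 50 µM only, with a ratio of -0.021 at CA 100 µM. PSMC1 had levels of 3.63, 3.50 and 3.58, and PSMC2 had levels of 2.91, 2.79 and 2.85. The lowest ratios of the ring were theirs, -0.13 for PSMC1 at CA 50 µM and -0.058 for PSMC2 at CA 100 µM.

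Of the 11 non-ATPase cap subunits, 6 had positive and 5 negative ratios at each dose, with medians of 0.0043 and 0.0046. PSMD3, a scaffold subunit of the lid, had levels of 0.72, 1.30 and 1.04. Its ratio of 0.58, or 1.49-fold, was the largest of all members at CA 50 µM, and its ratio of 0.32, or 1.25-fold, the largest at CA 100 µM. PSMD13, another scaffold subunit of the lid, had levels of 1.80, 2.17 and 1.94, with ratios of 0.37 and 0.14. Both were highest at CA 50 µM and intermediate at CA 100 µM.

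PSMD4, a receptor for ubiquitin chains, had levels of 4.72, 4.46 and 4.63, with ratios of -0.26 and -0.094. PSMD14, the enzyme that removes the ubiquitin chain before the substrate enters, had levels of 4.93, 4.79 and 4.90, with ratios of -0.14 and -0.030. PSMD2, a large scaffold of the base, had levels of 4.67, 4.37 and 4.54 by its brighter probe, with ratios of -0.30 and -0.13. Its other probe had levels of -0.097, 0.12 and 0.16, with ratios of 0.22 and 0.25. These probes of PSMD2 ran in opposite directions, and no direction is given for the gene.

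For 2 lid subunits the array held 10 spots of the same probe. PSMD7 was -0.26 ± 0.032 (SD over 9 spots) at CA 50 µM and -0.13 ± 0.048 (SD over 10 spots) at CA 100 µM, where 1 of its spots lay in the disturbed area. PSMD6 was 0.060 ± 0.049 and 0.045 ± 0.036 (SD over 10 spots each). Against the spread between spots of 1 array, PSMD7 was thus below 0 in both comparisons, while for PSMD6 the mean was little larger than that spread. PSMD7 was among the brightest 735 genes at CA 50 µM and 732 at CA 100 µM, whose medians were also below 0, at -0.16 and -0.10. Over the 6 scalings compared its ratio lay between -0.30 and -0.13 at CA 50 µM and between -0.38 and -0.031 at CA 100 µM. Spots are not samples, and these SDs cover printing and scanning only.

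The activators open the barrel in place of the cap. PSME1 and PSME2 form an activator induced by interferon, and their probes had opposite signs. PSME1 had levels of -0.17, -0.056 and -0.090, with ratios of 0.12 and 0.085. PSME2 had levels of 4.73, 4.54 and 4.63, with ratios of -0.19 and -0.097. All 4 of these values were within 1 scanner error of 0.

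PSME3, the activator of the nucleus, had levels of 2.31, 2.75 and 2.42, and was 1.36-fold higher at CA 50 µM, with ratios of 0.44 and 0.11. PSME4, which activates the particle in testis and after DNA damage, had levels of 1.89, 2.01 and 1.95 by its brighter probe, with ratios of 0.13 and 0.066, and its other probe gave -0.23 and -0.0093. PSMF1, an inhibitor of the core, had levels of 1.17, 1.26 and 1.25 by its brightest probe, with ratios of 0.092 and 0.086. Its 4 measured probes ranged from -0.19 to 0.75 at CA 50 µM and from 0.086 to 0.62 at CA 100 µM, so the value of PSMF1 depended on the probe.

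The assembly chaperones, which help the rings form and then leave, held both a high and a low member. PSMG3 had levels of -0.34, 0.084 and -0.027, with ratios of 0.42 and 0.31. PSMG1, which acts early in alpha ring assembly, had levels of 2.78, 2.33 and 2.73, with ratios of -0.45 and -0.053. PSMG4, which pairs with PSMG3, had levels of 0.095, -0.22 and -0.0097, with ratios of -0.32 and -0.10. PSMG3 and its partner PSMG4 therefore lay on opposite sides of 0 at both doses. PSMG1 was low on the CA 50 µM array only, and its ratio between the doses, 0.40, was the highest of all members. A second PSMG4 probe was not well above background on any array. PSMG2 and the base chaperones PSMD5, PSMD9 and PSMD10 had ratios from -0.044 to 0.047 at CA 50 µM and from -0.071 to 0.059 at CA 100 µM. The -0.071 came from the PSMD9 probe in the disturbed area, and the other probe of PSMD9 gave 0.13, as the other probe of PSMD5 gave 0.20.

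Probes of the same gene often disagreed at this size of difference. In 11 genes with several measured probes, the median range between probes was 0.15 at CA 50 µM and 0.20 at CA 100 µM. The probes had different signs in 7 of 11 genes at CA 50 µM and in 7 of 11 at CA 100 µM. At CA 100 µM most members had ratios smaller in size than the range for that dose, while at CA 50 µM the members were split about evenly around it. For PSMD3, PSMC3, PSMD13, PSME3, PSMG3, PSMB10 and PSMG1 there was 1 probe each, so no second probe could be compared.

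Core and cap were then set side by side. The 14 measured core subunits had a median ratio of -0.15 at CA 50 µM and -0.058 at CA 100 µM. The 17 cap subunits had medians of 0.0043 and 0.0046, so the core median was below the cap median by 0.16 and 0.063. The ratio of all genes also changed with signal. Among the brightest 2940 of the genes at CA 50 µM, and 2928 at CA 100 µM, the median of all genes was -0.11 and -0.061. This class held 34 of the 45 members, all 14 core subunits among them, and 14 of the 17 cap subunits. Within this class the core median was -0.15 and the cap median -0.063 at CA 50 µM, and -0.058 and -0.025 at CA 100 µM, for 14 subunits each. Among the brightest 735, the median at CA 50 µM was -0.19 for 10 core subunits, -0.23 for 6 cap subunits and -0.16 for all genes. Among genes outside it, the medians were 0.013 for 4 core subunits and 0.060 for 11 cap subunits. The core was thus below the cap in the wider bright class and not in the narrower one, which held fewer members.

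**Figure D3:**
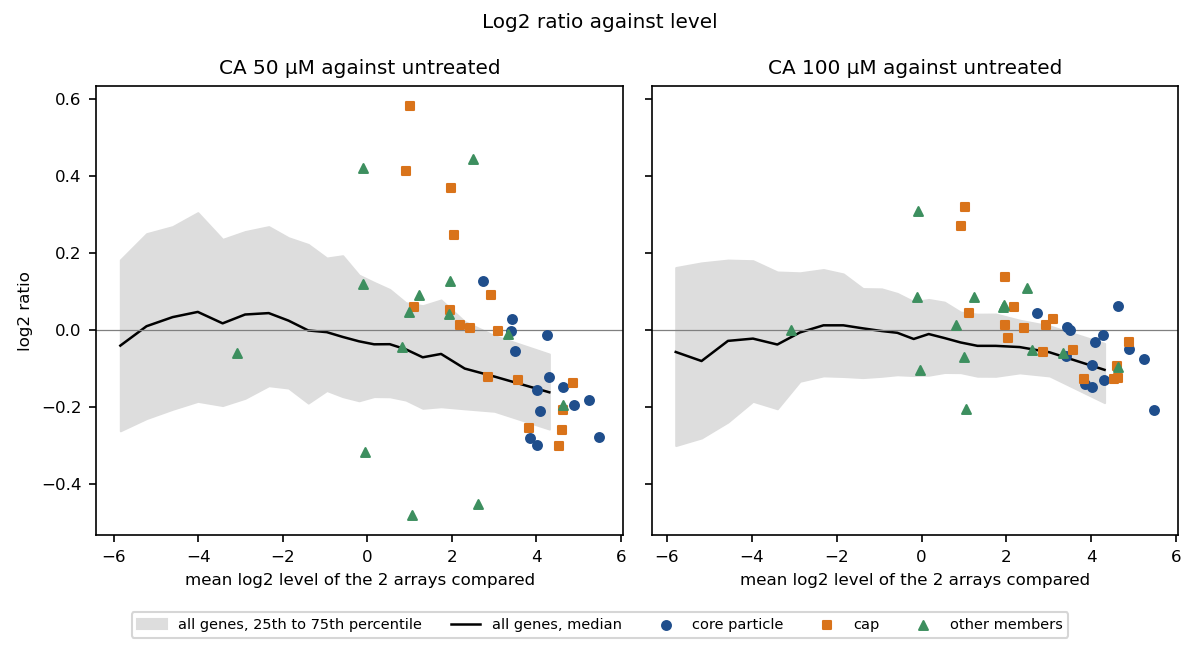
The log2 ratio (vertical axis) against the mean log2 level of the arrays compared (horizontal axis), at CA 50 µM (left) and CA 100 µM (right) against untreated. The line and band are the median and the range from the 25th to the 75th percentile of all genes in 20 classes of level, and the symbols are single members. The line falls toward the bright end, where the core subunits and most cap subunits lie. Members above the band at CA 50 µM include PSMD3, PSMC3, PSMD13, PSME3, PSMG3, PSMC4 and the core subunits PSMA4, PSMA5, PSMA7 and PSMB5.

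Quantile normalization, cyclic loess and the deposited normalized table, whose method is not stated, moved the core more than the cap. At CA 50 µM the core median was -0.0085 with quantile normalization, -0.0033 with cyclic loess and -0.0040 in the deposited normalized table. The cap medians under these scalings were 0.086, 0.083 and 0.086. The core medians at CA 100 µM were 0.045, 0.065 and 0.051, so their sign was the opposite of that under 75th percentile scaling. The core median stayed below the cap median at CA 50 µM under each scaling, by 0.087 to 0.16. Scaling by the 75th percentile and centring on the median shift all genes of an array alike. Their differences between core and cap were therefore bound to be the same, 0.16, and are not separate checks. By cyclic loess at CA 100 µM the core median was 0.0024 above the cap median. Background correction by normexp on all spots moved the median of all genes at CA 100 µM to 0.18, and gave medians of -0.36 for the core and -0.21 for the cap. With spots that carried a background flag left out, a setting added after the data were seen, normexp gave medians of -0.053 for all genes, -0.057 for the core and 0.044 for the cap.

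Of the 45 genes, 31 kept the sign of their ratio under all 6 scalings at CA 50 µM, 13 higher and 18 lower. For CA 100 µM 13 did, with PSMC3, PSMD3, PSME1 and PSMG3 higher and 9 lower. With the flagged spots left out of normexp, the number at CA 100 µM was 24. These counts were made for the members only. With no share of all genes beside them, they do not set the members apart from the array. PSMD3 stayed between 0.53 and 0.64 at CA 50 µM and between 0.18 and 0.34 at CA 100 µM. PSMG3 stayed between 0.37 and 0.43, and between 0.29 and 0.32. PSMB4 ranged from -0.33 to -0.075 at CA 50 µM and from -0.53 to 0.016 at CA 100 µM, so its sign at the higher dose depended on the scaling.

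**Figure D4:**
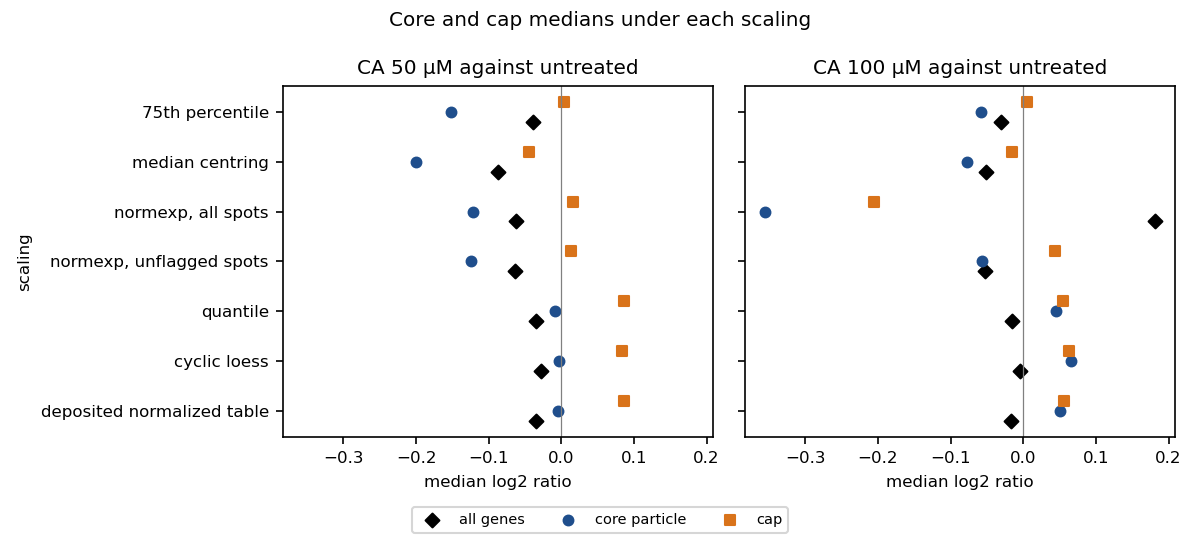
The median log2 ratio (horizontal axis) of all genes, the 14 core subunits and the 17 cap subunits under each scaling (vertical axis), at CA 50 µM (left) and CA 100 µM (right) against untreated. The core lies to the left of the cap at CA 50 µM under every scaling drawn, and at CA 100 µM both move to -0.36 and -0.21 with normexp on all spots.

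The promoter letters of members that stood out were read from a RefSeq table of the GRCh38.p14 build, which covers 250 bases before to 50 after each transcript start. It held 51 windows of 42 of the 48 genes. The motifs described, searched on both strands, were TGACNNNGC, the core of the antioxidant response element through which NFE2L1 and NFE2L2 drive proteasome genes, and GAAANNGAA, the core of the interferon-stimulated response element. The following stretches of 30 bases are on the gene's strand, with the motif in capitals, and are shown because PSMD3 had the highest ratio of all members at CA 50 µM and PSMG1, PSMB10 and PSMG4 among the lower ones. PSME2 is added because it shares its motif letters with PSMB10 and PSMG4.
PSMD3, antioxidant response core, chr17:39980760-39980789, plus strand: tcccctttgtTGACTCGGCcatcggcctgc
PSMG1, antioxidant response core, chr21:39183615-39183644, minus strand: gcccagggcaTGACAGCGCgggcgggcggt
PSMB10, interferon-stimulated response core, chr16:67936852-67936881, minus strand: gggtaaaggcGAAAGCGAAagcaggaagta
PSMG4, interferon-stimulated response core, chr6:3258904-3258933, plus strand: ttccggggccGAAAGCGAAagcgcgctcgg
PSME2, interferon-stimulated response core, chr14:24146619-24146648, minus strand: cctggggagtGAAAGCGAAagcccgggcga

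The antioxidant response core was found in windows of 15 of 42 members, or 35.7%, and of 16.1% of all 27305 symbols in the table. Of these 15 genes, all measured, 8 had positive ratios at CA 50 µM, with a median of 0.0043, and 6 at CA 100 µM, with a median of -0.013. Of the 24 measured members with a window and without these letters, 8 had positive ratios at CA 50 µM, with a median of -0.12, and 11 at CA 100 µM, with a median of -0.030. PSMD3 and PSMG1 both carry these letters and had ratios of 0.58 and -0.45.

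The interferon-stimulated response core was found in 8 members, or 19%, and 9.86% of all symbols. PSMB10, PSMG4 and PSME2 share the letters GAAAGCGAA on the gene's strand, and PSME1 and PSMB8 carry them on the other strand. PSME1 had positive ratios, 0.12 and 0.085, and PSMB8 had no measured ratio. Of the 7 measured genes with it, 6 had negative ratios at CA 50 µM, with a median of -0.19, and 6 at CA 100 µM, with a median of -0.097. These counts hold for 75th percentile scaling. PSMA4, PSMB4, PSMC2 and PSME2, which are among the 7, changed sign at CA 100 µM under at least 1 of the 6 scalings compared. PSMA4, PSMB4 and PSME2 were also among the brightest 735 genes at CA 50 µM, whose median was -0.16. The other 32 measured members with a window had medians of -0.0026 and 0.0022, with 15 and 16 of them above 0. Among all genes, 8276 of 14700 were below 0 at CA 50 µM and 8440 of 14640 at CA 100 µM. A match of letters is a description of the window and shows neither binding nor a cause.

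The partners of the particle were also described from a list. Of 12 partners 11 had a probe, and their median ratio was -0.14 at CA 50 µM and 0.013 at CA 100 µM. ADRM1, the ubiquitin receptor docked on PSMD1 in the cap, had levels of 0.71, 1.36 and 0.94, with ratios of 0.65 and 0.24. AKIRIN2, which carries the particle into the nucleus, had levels of 0.42, 0.82 and 0.66, with ratios of 0.40 and 0.24. SEM1, a small lid subunit without a PSM symbol, had levels of 4.71, 4.42 and 4.56, with ratios of -0.30 and -0.15. In total 2 of 11 partners were at least 1.2-fold higher and 1 of 11 lower at CA 50 µM, and 0 in either direction at CA 100 µM. These shares were near or below those of all genes, 16.4% and 16.1% at CA 50 µM and 8.22% and 10.4% at CA 100 µM.

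Of 8 regulators of proteasome genes, 7 were measured against the untreated array, with medians of -0.13 and -0.067. NFE2L1, the factor that restores proteasome genes when the particle is blocked, had levels of 2.87, 2.68 and 2.77, with ratios of -0.19 and -0.099. NFE2L2, the factor of the oxidative stress response, had levels of -3.47, -3.61 and -3.17, with ratios of -0.13 and 0.31. The 17 genes of ubiquitin supply and delivery had medians of -0.12 and -0.088, with 2 of 17 at least 1.2-fold higher and 4 of 17 lower at CA 50 µM, beside 16.4% and 16.1% of all genes, and 0 and 1 of 17 at CA 100 µM, beside 8.22% and 10.4%. UBA1, the main ubiquitin-activating enzyme, had levels of 0.24, 0.75 and 0.39, with ratios of 0.51 and 0.15. UFD1, which works with VCP, had levels of 4.28, 3.87 and 4.20, with ratios of -0.42 and -0.088.

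The 9 genes of antigen processing that work with the immunoproteasome had medians of -0.13 and -0.073. Under the other settings the second of these lay anywhere between -0.13 and 0.64, the latter by normexp on all spots. Signs at CA 100 µM also turned for the medians of the partners, between -0.14 and 0.038, the regulators, between -0.087 and 0.048, and the ubiquitin genes, between -0.39 and 0.015. At CA 50 µM the medians of these 4 lists were negative under every setting run. So was the median of all genes, between -0.088 and -0.012, so the sign does not set these lists apart from the array. TAP1, a peptide transporter, had levels of -2.74, -3.26 and -2.70, with ratios of -0.52 and 0.043. IRF1, a factor induced by interferon, had levels of -4.03, -3.49 and -3.82, with ratios of 0.53 and 0.20. TAP1, like PSMB10 and PSMG1, was lowest on the CA 50 µM array, and IRF1, like PSMD3, was highest on it. PSMC3IP had ratios of 0.093 and 0.14, and PSME3IP1 of -0.078 and -0.054.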

How the data were processed

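The authors extracted total RNA from Huh7 cells with Trizol, amplified it, labelled it with Cy3 and hybridised it to Agilent 4 × 44 K arrays. Images were read with Feature Extraction 11.0.1.1, per the labels. The deposited spot files hold intensity values, background-subtracted but not scaled between arrays, with the software's error of each value. The deposited normalized table holds log2 values made by the authors in a way not stated; its correlation with the log2 scanner values was at least 0.9999 on each array, and its 3 column medians were all 6.23.

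Each array was scaled by dividing its processed signals by their 75th percentile, and log2 was taken. Control spots and spots with an outlier flag (429, 569 and 596) were left out, and spots of a probe were averaged. A probe had to be well above background on both arrays compared, as 70.4% to 71.1% of spots were on each array. RefSeq accessions named 25771 of 34127 probes. Ratios, counts at 2-fold and 1.2-fold and medians were computed in Python 3.11.15, and normalizations with limma 3.58.1 in R 4.3.3. The scripts were tested on simulated data. With 1 array per group no test could be made, and no depth applies to arrays, whose number limits the precision. The files hold no mean spot signals, so normexp (offset 50) used median ones.

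Full values are given for the catalytic and inducible subunits, the testis and thymus forms, activators and inhibitor, PSMD4, PSMD14, the highest and lowest member of each role, members known only as a bound and those whose probes disagree by over 0.5; PSMD13 and PSMC4 were added after their values were seen. The members, roles, lists and motifs were chosen with earlier results of these data known. Normexp without flagged spots and the scanner-error rule were added after the data were seen, the former because normexp on all spots shifted the CA 100 µM array. A further motif that was searched is not reported here.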

Additional observations from a re-analysis of the deposited data

How the results depend on the processing

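Of 396 group values under the alternatives, 326 kept within the median spread of spots (or within 1.5 times a count) and 70 moved, as did 316 of 1618 single-gene values; the causes were not tested. No paired analysis was possible because each group had 1 array, and there was no array to leave out.

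With cyclic loess at CA 50 µM, 3 genes were at least 1.2-fold lower, and the medians were 0.060 for all proteasome genes, 0.019 for core alpha, -0.0099 for core beta, 0.091 for the ATPase cap, 0.083 for the non-ATPase cap and 0.079 for the assembly chaperones. At CA 100 µM they were 0.060 for all proteasome genes, 0.072 for core alpha, 0.059 for core beta, 0.070 for the ATPase cap and 0.022 for the chaperones. With quantile normalization at CA 50 µM, 3 genes were at least 1.2-fold lower, with medians of -0.0016 for core alpha, -0.015 for core beta, 0.079 for the ATPase cap, 0.086 for the non-ATPase cap and 0.077 for the chaperones. At CA 100 µM they were 0.047 for all proteasome genes, 0.051 for core alpha and 0.040 for core beta. In the deposited normalized table (series matrix) at CA 50 µM, 3 genes were at least 1.2-fold lower, with medians of 0.024 for all proteasome genes, 0.00099 for core alpha, -0.0090 for core beta, 0.080 for the ATPase cap, 0.086 for the non-ATPase cap and 0.077 for the chaperones. At CA 100 µM they were 0.047 for all proteasome genes, 0.058 for core alpha and 0.044 for core beta.

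With normexp on all spots at CA 100 µM against untreated, 1 gene (PSMB9, at 1.02) differed by 2-fold and 21 were at least 1.2-fold lower. The medians were -0.25 for all proteasome genes, -0.34 for core alpha, -0.40 for core beta, 0.31 for the immunoproteasome, -0.19 for the ATPase cap, -0.22 for the non-ATPase cap, -0.089 for activators and inhibitor and -0.21 for the chaperones. Between the doses, 1 gene differed by 2-fold, 1 was at least 1.2-fold higher and 16 were lower. The medians there were -0.23 for all proteasome genes, -0.23 for core alpha, -0.19 for core beta, 0.61 for the immunoproteasome, -0.23 for the ATPase cap, -0.23 for the non-ATPase cap, -0.25 for activators and inhibitor and -0.14 for the chaperones. Under normexp without flagged spots, added after the data were seen, 2 values moved: the ATPase cap median at CA 100 µM was 0.073, and 1 gene was at least 1.2-fold lower between the doses.

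With no filter, 1 gene differed by 2-fold at CA 50 µM, and at CA 100 µM 2 did and 5 were at least 1.2-fold higher. The immunoproteasome medians were then -0.060, -0.00023 and, between the doses, 0.060. With a filter on 1 array, 1 gene differed by 2-fold at CA 100 µM. Centring on the median left 1 gene at least 1.2-fold lower between the doses. With every probe on its own, 5 were at least 1.2-fold higher at CA 100 µM and 4 between the doses, and the chaperone median at CA 100 µM was 0.036. With the mean over probes, that median was 0.059, and the medians at CA 50 µM were -0.049 for core alpha and -0.12 for core beta. Without disturbed areas the chaperone median at CA 100 µM was 0.012, and that of core alpha between the doses 0.064.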
